A study of Mus musculus with 6 samples.

Results

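The comparison described here set mouse natural killer (NK) cells that were expanded on feeder cells and then given an antibody against TIM-3 against NK cells expanded with IL-15 and no feeder cells. It rested on 4 of the 6 libraries of the series, 2 per group, chosen by what the labels give as expansion and treatment, and it covered all 498 endogenous genes of the panel, of which 410 were detected well enough to be tested. The anti-TIM-3 libraries (replicates 1 and 2) held NK cells grown with IL-15/IL-15Rα and irradiated AgN2a-4P cells, then exposed to anti-TIM-3. The untreated feeder libraries (replicates 2 and 3) had the same expansion and no treatment in their labels, and they serve here as the step between the groups. The IL-15 libraries (replicates 1 and 3) were labelled as expanded with IL-15/IL-15Ra and untreated. All cells were NK cells of female C57BL/6 mice. Per the labels' protocols they were expanded for 12 days with 10 ng/mL of the IL-15 conjugate, feeder cells received 100 Gy, antibody exposure lasted 4 h and NK cells were purified before RNA was isolated. Anti-TIM-3 and IL-15 libraries therefore differ by the feeder cells, the antibody and the 4 h step, and these cannot be told apart in a difference between them. The protocols also name an isotype control antibody, whereas the controls are labelled with no treatment, and the protocol text on feeder cells is the same for every library. Nothing in the labels says whether libraries of a group came from separate mice, so the p-values cover a spread between samples that may be technical only.

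NK cells are innate lymphocytes that kill infected and malignant cells with perforin and granzymes and that secrete cytokines and chemokines. IL-15 is the cytokine they need to survive and divide, and it signals through the IL-2 receptor beta chain and the common gamma chain. AgN2a-4P is a mouse neuroblastoma line made to carry the ligands CD80, CD86, CD54 and CD137L, which act on adhesion and costimulatory receptors of lymphocytes. TIM-3, the product of Havcr2, is a surface receptor of activated NK and T cells that is counted among the inhibitory checkpoints.

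RNA was counted with a NanoString nCounter panel, in which a fluorescent barcode hybridises to each transcript and is counted without amplification. Recovered counts totalled 409626 and 299485 for anti-TIM-3, 379767 and 359824 for untreated feeder, and 422455 and 441185 for IL-15. The negative controls averaged 4.25 to 6.13 counts. Values below are normalised counts, that is 2 to the power of the deposited log2 value, in the order of replicates given above. Across genes, r was 0.736 to 0.886 between anti-TIM-3 and IL-15 libraries and 0.959 or more within groups, and genes are not independent replicates. The untreated feeder and IL-15 libraries did not form separate groups by this measure, since untreated feeder replicate 2 and IL-15 replicate 3 had r = 0.975.

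Of the 430 probes tested, 189 were higher in anti-TIM-3 than in IL-15 libraries, which is 44% of them, and 30 were lower, which is 6.98%, or 219 and 50.9% in either direction (limma, Benjamini-Hochberg adjusted p under 0.05). The higher probes were all endogenous genes, and the lower ones were 29 endogenous genes and the housekeeping gene Polr1b, a subunit of RNA polymerase I. Without anti-TIM-3 replicate 2 the calls were 95 higher and 18 lower, and without IL-15 replicate 1 they were 129 and 18. The split depended on the scale. The deposited values are set so that 20 housekeeping genes have the same mean in every library, and on that scale the median difference of all tested probes was a log2 of 0.70. With TMM, a trimmed mean of log ratios between libraries, the median was 0.00 and the calls were 77 higher (17.9%) and 76 lower (17.7%). Total counts as the scale gave 74 (17.2%) and 55 (12.8%), a median of ratios 75 (17.4%) and 77 (17.9%), and the spiked positive controls 38 (8.84%) and 42 (9.77%). The 20 housekeeping genes themselves differed by a log2 of −1.01 (Polr1b) to 0.52 (Edc3).

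Calls that passed on the deposited scale and on the 4 others numbered 37 higher (8.6% of tested probes) and 29 lower (6.74%), and these carry the account below. The counts of each gene list stand against these shares, and against 44% higher and 6.98% lower on the deposited scale. Leaving out each of the 6 libraries in turn, 34 of these 37 rises and 14 of these 29 falls kept their call in every such fit. The libraries of both groups did not overlap at 290 probes higher and 63 lower in anti-TIM-3, which is 67.4% and 14.7% of those tested.

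**Figure D1:**
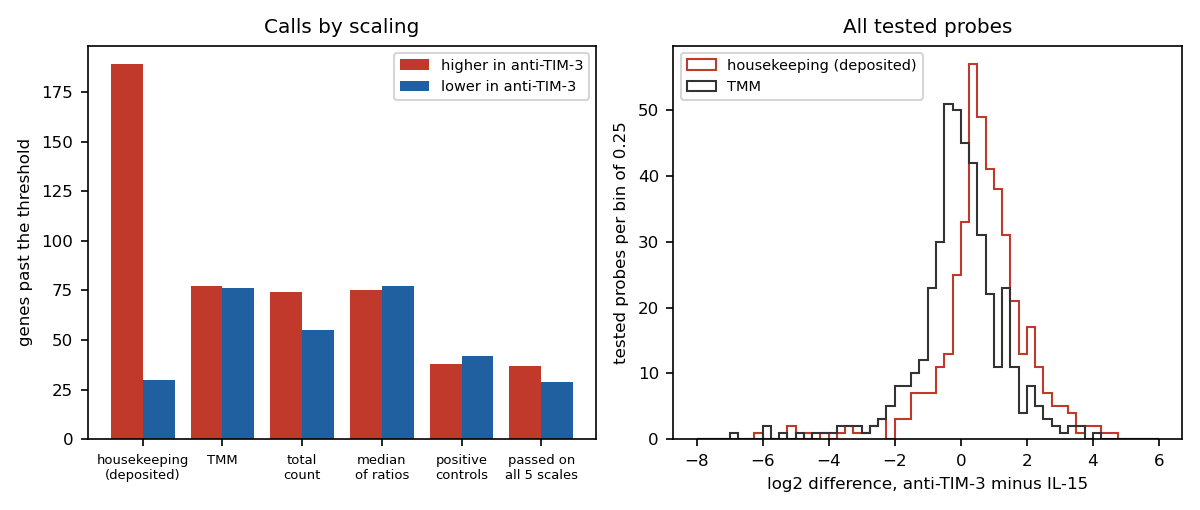
Left, the number of genes past the threshold (y axis) on each of 5 scales and on all 5, with genes higher in anti-TIM-3 in red and lower in blue. Right, the log2 difference of all 430 tested probes (x axis) on the housekeeping and TMM scales, with the number of probes per bin on the y axis. The housekeeping scale calls 189 higher and 30 lower, TMM 77 and 76, and the curve on the housekeeping scale lies to the right of the other.

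Transcripts of the antibody's own target were lower in the anti-TIM-3 libraries. Havcr2 had 87.9 and 24.3 normalised counts in anti-TIM-3 libraries, 717 and 1343 in untreated feeder libraries, and 682 and 538 in IL-15 libraries. The anti-TIM-3 libraries lay below all others, and the untreated feeder libraries lay above both IL-15 libraries. The log2 difference between anti-TIM-3 and IL-15 was −3.71 ± 0.62 (SE, n = 2 each, adjusted p = 0.00625), and it passed on all 5 scales and without each library in turn. In bulk RNA, fewer cells that carry a transcript and less of it per cell cannot be told apart.

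Chemokines and cytokines held 5 of the 12 largest rises. Among 17 tested genes of this list, 11 were called higher and 3 lower, beside 44% and 6.98% of all tested probes. On all scales 7 and 3 of the list's genes passed, beside 8.6% and 6.74% of all tested probes. Some of its rises are TNF superfamily genes, which are counted again in that list below. The median log2 difference of the list was 2.28, beside 0.70 for all tested probes. Ccl3 and Ccl4 encode the chemokines MIP-1α and MIP-1β, which attract leukocytes. Ccl3 had 2111 and 2233 normalised counts in anti-TIM-3 libraries, 244 and 196 in untreated feeder libraries, and 56.7 and 118 in IL-15 libraries. Ccl4 had 712 and 865 in anti-TIM-3 libraries, 145 and 156 in untreated feeder libraries, and 26.7 and 78.3 in IL-15 libraries. For both genes the 3 groups followed each other without overlap, with the anti-TIM-3 libraries highest. The log2 differences between anti-TIM-3 and IL-15 were 4.73 ± 0.36 for Ccl3 (adjusted p = 0.00211) and 4.10 ± 0.49 for Ccl4 (adjusted p = 0.00259).

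Xcl1, a chemokine for cross-presenting dendritic cells, had 32272 and 45905 normalised counts in anti-TIM-3 libraries, 11085 and 3894 in untreated feeder libraries, and 3827 and 5644 in IL-15 libraries. The untreated feeder libraries overlapped the IL-15 libraries, and the anti-TIM-3 libraries lay above all others (log2 difference 3.05 ± 0.52, adjusted p = 0.00628). Csf2 encodes the growth factor GM-CSF. It had 268 and 226 normalised counts in anti-TIM-3 libraries, 51.5 and 23.5 in untreated feeder libraries, and 13.4 and 22.7 in IL-15 libraries (log2 difference 3.82 ± 0.48, adjusted p = 0.00346). Its IL-15 values stand on 16 and 31 counts. Ccl1, a ligand of CCR8, had 714 and 2924 normalised counts in anti-TIM-3 libraries, 248 and 77.9 in untreated feeder libraries, and 75.9 and 73.9 in IL-15 libraries. The anti-TIM-3 replicates were far apart, and the call (log2 difference 4.27 ± 0.77, adjusted p = 0.00701) was lost without IL-15 replicate 1 and without IL-15 replicate 3. Ifng, the signature cytokine of NK cells, had 121 and 93.8 normalised counts in anti-TIM-3 libraries, 131 and 100 in untreated feeder libraries, and 34.2 and 73.9 in IL-15 libraries. It did not pass the test (log2 difference 1.08 ± 0.42, adjusted p = 0.0761).

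The 3 secreted factors that fell were Vegfa, Mif and Spp1. Vegfa, the vascular endothelial growth factor, had 40.5 and 39.9 normalised counts in anti-TIM-3 libraries, 507 and 828 in untreated feeder libraries, and 511 and 293 in IL-15 libraries (log2 difference −3.26 ± 0.35, adjusted p = 0.00214). Mif, the macrophage migration inhibitory factor, had 678 and 495 in anti-TIM-3 libraries, 3090 and 4223 in untreated feeder libraries, and 3213 and 3278 in IL-15 libraries (log2 difference −2.49 ± 0.24, adjusted p = 0.00214). For both, only the anti-TIM-3 libraries stood apart, below the other 4. Spp1, osteopontin, had 3755 and 2134 normalised counts in anti-TIM-3 libraries, 17881 and 38387 in untreated feeder libraries, and 35992 and 9445 in IL-15 libraries. Its IL-15 replicates differed widely, and its call (log2 difference −2.70 ± 0.70, adjusted p = 0.0216) was lost without anti-TIM-3 replicate 2.

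**Figure D2:**
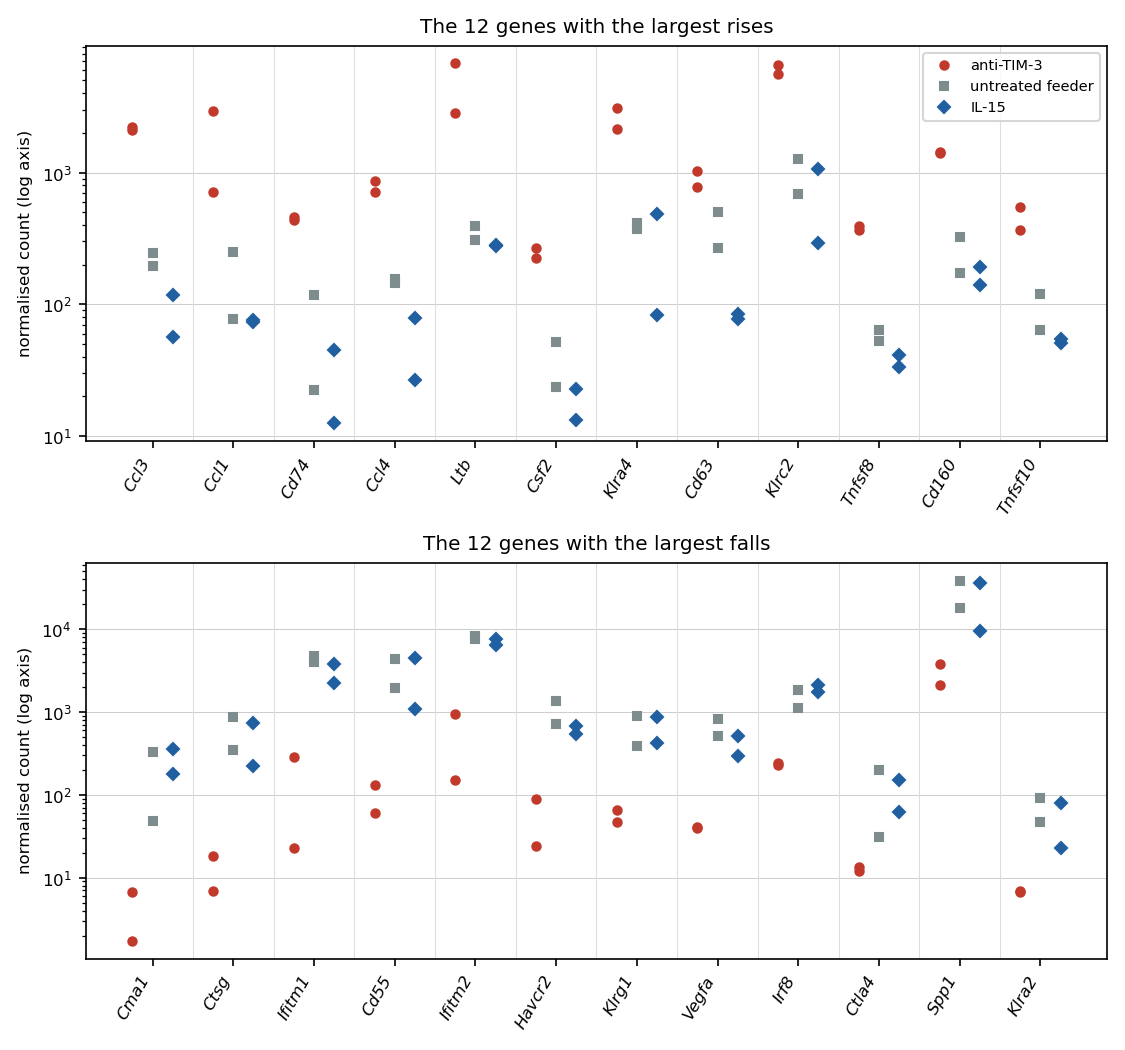
Normalised counts (y axis, log) of the 12 genes with the largest rises (top) and the 12 with the largest falls (bottom), one symbol per library, with anti-TIM-3 in red circles, untreated feeder in grey squares and IL-15 in blue diamonds. Ccl3 reached 2111 and 2233 in anti-TIM-3 libraries against 56.7 and 118 in IL-15 libraries, and Vegfa 40.5 and 39.9 against 511 and 293.

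Of 20 tested ligands and receptors of the TNF superfamily, 11 were called higher, 7 of them on all scales, beside 44% and 8.6% of all tested probes, and 9 did not pass. The median log2 difference was 1.32. None was called lower on the deposited scale, against 2 with TMM and with the median of ratios and 1 on each of the other scales. Ltb, a subunit of membrane lymphotoxin, had 2836 and 6720 normalised counts in anti-TIM-3 libraries, 394 and 305 in untreated feeder libraries, and 277 and 281 in IL-15 libraries. Its groups followed each other without overlap, and most of the distance lay between the anti-TIM-3 and the untreated feeder libraries (log2 difference from IL-15 3.97 ± 0.40, adjusted p = 0.00214). Tnf had 376 and 255 normalised counts in anti-TIM-3 libraries, 50.5 and 42.0 in untreated feeder libraries, and 42.6 and 53.4 in IL-15 libraries, so that the untreated feeder and IL-15 libraries overlapped. Tnfsf8, the ligand of CD30, had 390 and 365 in anti-TIM-3 libraries, 63.4 and 53.1 in untreated feeder libraries, and 33.4 and 41.0 in IL-15 libraries. Tnfsf10 encodes the death ligand TRAIL. It had 368 and 545 in anti-TIM-3 libraries, 119 and 64.3 in untreated feeder libraries, and 54.2 and 50.5 in IL-15 libraries. The log2 differences between anti-TIM-3 and IL-15 were 2.70 ± 0.31 for Tnf (adjusted p = 0.00242), 3.35 ± 0.26 for Tnfsf8 (adjusted p = 0.00211) and 3.10 ± 0.36 for Tnfsf10 (adjusted p = 0.00259).

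The other members called on all scales were Tnfsf14 (LIGHT), Tnfsf12 (TWEAK) and the TNF receptor gene Tnfrsf1a, at log2 differences of 2.79, 2.31 and 2.14. Lta, which encodes soluble lymphotoxin, was called higher at 2.93 ± 0.64 but passed on 3 of the 5 scales. Tnfrsf9 encodes 4-1BB, the receptor of the CD137L carried by the feeder cells. It had 660 and 707 normalised counts in anti-TIM-3 libraries, 979 and 1634 in untreated feeder libraries, and 1136 and 807 in IL-15 libraries, and it did not pass on the deposited scale (log2 difference −0.49, adjusted p = 0.204) but was called lower on the 4 others.

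Genes of the NF-kB pathway, the transcription factor system downstream of TNF receptors and Toll-like receptors, were called higher at 12 of 17 tested. Over all tested probes 44% were called higher. Of the 17 genes 0 were lower, and 2 were higher on all scales, beside 8.6% of all tested probes. The median log2 difference was 1.13, and without anti-TIM-3 replicate 2 the calls numbered 5 and without IL-15 replicate 1 they numbered 7. The 2 were Relb, the Rel subunit of the noncanonical branch, and Ikbke, a member of the IkB kinase family. Relb had 538 and 910 normalised counts in anti-TIM-3 libraries, 179 and 178 in untreated feeder libraries, and 151 and 174 in IL-15 libraries (log2 difference 2.11 ± 0.29, adjusted p = 0.00398). Ikbke had 224 and 418 in anti-TIM-3 libraries, 78.2 and 90.2 in untreated feeder libraries, and 80.1 and 65.1 in IL-15 libraries (log2 difference 2.08 ± 0.35, adjusted p = 0.00625). Nfkbia, which encodes the inhibitor IkBα and is itself an NF-kB target, was called at 1.98 ± 0.32 and passed on 4 of 5 scales. Nfkb1 did not pass (log2 difference 0.21, adjusted p = 0.396).

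Promoters are shown for 2 of the large rises, Ltb and Ccl1, and for Hif1a, a gene that fell through all 3 groups, because each holds a motif of a pathway described here. Of the panel's genes, 399 were found in the RefSeq promoter table of GRCm38.p6. The 250 bases before the start of Ltb (chr17:35194257-35194506, plus strand) and of Ccl1 (chr11:82179813-82180062, minus strand) each hold a match to a motif of NF-kB (GGG, 3 of any base, then TTCC) on either strand, shown in capitals. The capitals in Ccl1 span 2 overlapping matches, starting at −196 and −195 from the gene start, and the match in Ltb starts at −87. In Hif1a (chr12:73907617-73907866, plus strand) the capitals mark ACGTG, the core of the hypoxia response element, at −135, −134 and −70, the first 2 being the same site read on both strands.
Ltb: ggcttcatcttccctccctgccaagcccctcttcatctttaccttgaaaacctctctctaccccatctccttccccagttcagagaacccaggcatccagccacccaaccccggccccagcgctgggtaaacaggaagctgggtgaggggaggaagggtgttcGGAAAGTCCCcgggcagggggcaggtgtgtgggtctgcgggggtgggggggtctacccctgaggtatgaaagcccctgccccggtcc
Ccl1: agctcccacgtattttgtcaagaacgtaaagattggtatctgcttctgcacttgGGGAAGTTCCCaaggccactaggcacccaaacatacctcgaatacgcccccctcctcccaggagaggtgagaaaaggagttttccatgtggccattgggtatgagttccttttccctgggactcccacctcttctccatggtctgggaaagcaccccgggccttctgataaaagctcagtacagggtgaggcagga
Hif1a: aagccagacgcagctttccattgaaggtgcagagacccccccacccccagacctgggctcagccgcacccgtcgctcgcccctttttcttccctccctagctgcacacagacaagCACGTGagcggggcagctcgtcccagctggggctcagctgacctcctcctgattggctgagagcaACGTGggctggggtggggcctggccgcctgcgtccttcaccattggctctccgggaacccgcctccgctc

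The NF-kB motif was found in 12.1% of the 149 matched promoters of genes called higher, in 0% of the 25 of genes called lower, in 11.1% of the 334 of all tested genes and in 5.31% of all 27025 genes of the table. The share among genes called higher was thus close to that of the panel's tested genes. Among the rises on all scales, 4 of 32 matched promoters held the motif (12.5%). Those of Ccl3, Tnf, Xcl1 and Csf2 did not hold it. TGANTCA, a motif of AP-1, was in 10.1% of promoters of genes called higher, 12% of those called lower, 9.28% of those tested and 7.82% of all. ACGTG was in 16.8%, 28%, 21.3% and 18.5% of the same groups of promoters. A match is a run of letters in this window and not a measured binding site.

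Cytotoxic genes did not move together: of 10 tested, 6 were called higher and 1 lower, beside 44% and 6.98% of all tested probes. On all scales 3 and 1 passed, and the median log2 difference was 0.92. The granule genes Cd63, a tetraspanin of granule membranes, and Ctsw, the protease cathepsin W, were higher. Cd63 had 776 and 1035 normalised counts in anti-TIM-3 libraries, 498 and 269 in untreated feeder libraries, and 85.1 and 77.5 in IL-15 libraries, in 3 groups without overlap (log2 difference 3.46 ± 0.33, adjusted p = 0.00214). Ctsw had 3666 and 5120 in anti-TIM-3 libraries, 1727 and 1351 in untreated feeder libraries, and 753 and 1241 in IL-15 libraries (log2 difference 2.16 ± 0.31, adjusted p = 0.00431). Perforin, which forms the pore through which granzymes enter a target cell, went the other way. Prf1 had 1889 and 2205 normalised counts in anti-TIM-3 libraries, 7595 and 15541 in untreated feeder libraries, and 12804 and 8286 in IL-15 libraries (log2 difference −2.34 ± 0.39, adjusted p = 0.00625). The granzyme genes did not pass the test. Gzmb had 14702 and 14648 in anti-TIM-3 libraries, 15027 and 21657 in untreated feeder libraries, and 16804 and 12095 in IL-15 libraries, at a log2 difference of 0.04 ± 0.28 (adjusted p = 0.914). Gzma, at 0.70 ± 0.29, had an adjusted p of 0.0833. On TMM scaling the values of these 2 genes were −0.66 and 0.00.

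Among activating NK receptors and their adaptors, 11 of 16 tested genes were called higher and 1 lower, beside 44% and 6.98% of all tested probes. On all scales 4 and 1 passed, and the median log2 difference was 1.73. The count of higher calls was 7 without anti-TIM-3 replicate 2. Klrc2, the activating receptor NKG2C, had 5594 and 6510 normalised counts in anti-TIM-3 libraries, 1273 and 685 in untreated feeder libraries, and 290 and 1066 in IL-15 libraries. Cd160, a receptor for MHC class I and HVEM, had 1397 and 1439 in anti-TIM-3 libraries, 327 and 173 in untreated feeder libraries, and 191 and 141 in IL-15 libraries. In both genes the untreated feeder libraries overlapped the IL-15 libraries, and the anti-TIM-3 libraries lay well above. The log2 differences were 3.44 ± 0.62 for Klrc2 (adjusted p = 0.00697) and 3.11 ± 0.34 for Cd160 (adjusted p = 0.00214).

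Klrb1c, the NK1.1 antigen, had 2962 and 4400 normalised counts in anti-TIM-3 libraries, 812 and 959 in untreated feeder libraries, and 366 and 964 in IL-15 libraries (log2 difference 2.60 ± 0.46, adjusted p = 0.00693). Hcst encodes DAP10, the adaptor that carries the signal of the receptor NKG2D. It had 412 and 601 in anti-TIM-3 libraries, 150 and 159 in untreated feeder libraries, and 108 and 96.6 in IL-15 libraries (log2 difference 2.29 ± 0.25, adjusted p = 0.00214). Klrk1, NKG2D itself, had 9859 and 13248 in anti-TIM-3 libraries, 4538 and 2956 in untreated feeder libraries, and 1273 and 3766 in IL-15 libraries. Its call (2.38 ± 0.53, adjusted p = 0.0126) passed on 2 of 5 scales and was lost without anti-TIM-3 replicate 2. IL-15 replicate 1 was the lower IL-15 library for each of Klrc2, Klrb1c and Klrk1. Sh2d1a, the adaptor SAP of the SLAM receptors, was the 1 gene of the list called lower (−0.97 ± 0.32, adjusted p = 0.0465), and that call was lost without any 1 of the 4 libraries of both groups.

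The inhibitory receptor list divided, with 6 of 10 tested genes higher and 3 lower, beside 44% and 6.98% of all tested probes. On all scales 1 and 3 passed (median log2 difference 0.96). Of the higher calls 3 were left without anti-TIM-3 replicate 2. Beside Havcr2, the genes that fell were Klrg1 and Ctla4. Klrg1, a cadherin-binding receptor of mature NK cells, had 65.3 and 46.9 normalised counts in anti-TIM-3 libraries, 386 and 903 in untreated feeder libraries, and 880 and 426 in IL-15 libraries (log2 difference −3.47 ± 0.51, adjusted p = 0.00476). Ctla4, the inhibitory receptor for CD80 and CD86, had 13.5 and 12.2 in anti-TIM-3 libraries, 30.7 and 198 in untreated feeder libraries, and 152 and 61.4 in IL-15 libraries. Its call (−2.91 ± 0.90, adjusted p = 0.0371) was lost without anti-TIM-3 replicate 1, without anti-TIM-3 replicate 2 and without IL-15 replicate 1. Lag3, a checkpoint that binds MHC class II, was called at 1.42 ± 0.27 (adjusted p = 0.00782) and passed on no other scale. Tigit did not pass, at 126 and 142 in anti-TIM-3 libraries, 106 and 180 in untreated feeder libraries, and 127 and 135 in IL-15 libraries. The 1 higher call on all scales was Cd160, which the list shares with the activating receptors.

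The Ly49 receptors are a family of MHC class I receptors of rodent NK cells with closely related sequences. Of 6 tested, 3 were called higher and 1 lower, beside 44% and 6.98% of all tested probes, with 1 and 1 on all scales. These calls were 0 and 0 without anti-TIM-3 replicate 2, and the lower ones were 0 without IL-15 replicate 1 and 2 without IL-15 replicate 3. Klra4, the activating receptor Ly49D, had 2145 and 3073 normalised counts in anti-TIM-3 libraries, 372 and 415 in untreated feeder libraries, and 82.6 and 484 in IL-15 libraries (log2 difference 3.68 ± 0.76, adjusted p = 0.0111). Its call was lost on positive control scaling (adjusted p = 0.0531). Klra6, Ly49F, had 241 and 399 in anti-TIM-3 libraries, 103 and 97.6 in untreated feeder libraries, and 18.4 and 74.6 in IL-15 libraries (3.07 ± 0.65, adjusted p = 0.0116), and passed on all scales. The spread between the IL-15 replicates of these genes was wide, and the anti-TIM-3 libraries lay above both. Klra2 had 6.76 and 6.95 in anti-TIM-3 libraries, which is near the negative controls at 6 and 4 counts, 47.5 and 91.4 in untreated feeder libraries, and 79.3 and 22.7 in IL-15 libraries. How far probes of this family bind each other's transcripts was not tested.

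**Figure D3:**
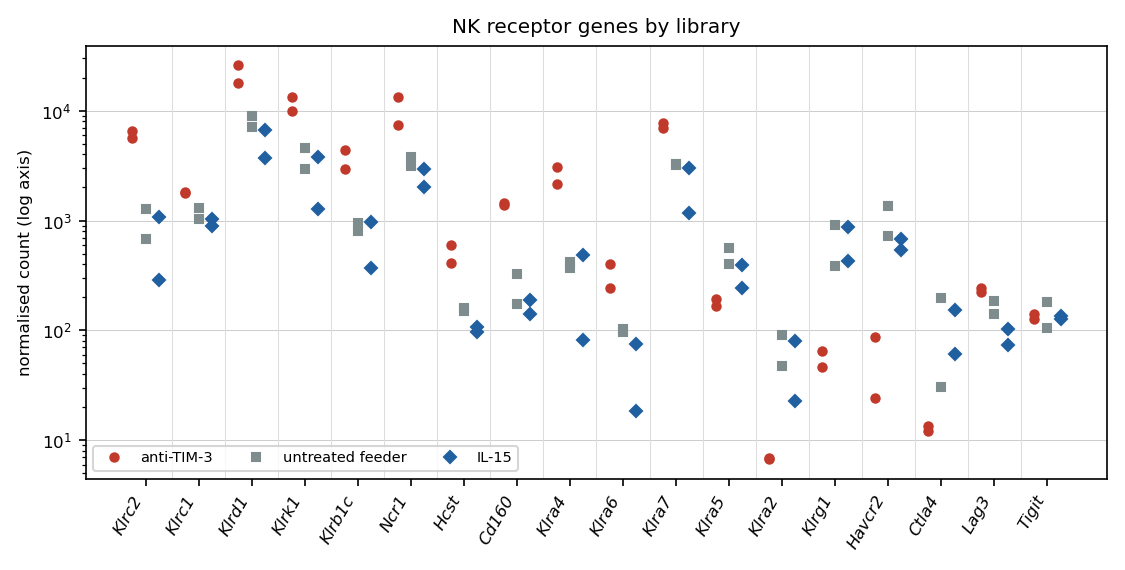
Normalised counts (y axis, log) of 18 NK receptor and adaptor genes in each library, with anti-TIM-3 in red circles, untreated feeder in grey squares and IL-15 in blue diamonds. Klrc2 and Cd160 lie above all other libraries in anti-TIM-3, Havcr2 and Klrg1 lie below, and Tigit overlaps between groups.

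Of 24 transcription factors of NK and other lymphoid cells, 12 were called higher and 2 lower, beside 44% and 6.98% of all tested probes. On all scales 1 and 2 passed, and the median log2 difference was 0.70, equal to that of all tested probes. With TMM 4 were higher and 5 lower. Without anti-TIM-3 replicate 2 the higher calls numbered 4. Rora, a nuclear receptor best known in innate lymphoid cells, had 863 and 912 normalised counts in anti-TIM-3 libraries, 131 and 156 in untreated feeder libraries, and 64.3 and 177 in IL-15 libraries (log2 difference 3.06 ± 0.46, adjusted p = 0.00502). Irf8 had 244 and 227 in anti-TIM-3 libraries, 1133 and 1836 in untreated feeder libraries, and 2121 and 1726 in IL-15 libraries (−3.02 ± 0.27, adjusted p = 0.00214). The T-box factors of NK cells moved apart. Eomes had 1073 and 1106 in anti-TIM-3 libraries, 1596 and 2004 in untreated feeder libraries, and 2256 and 2254 in IL-15 libraries (−1.05 ± 0.18, adjusted p = 0.00641), in 3 groups that did not overlap. Tbx21, T-bet, had 249 and 340 in anti-TIM-3 libraries, 107 and 108 in untreated feeder libraries, and 67.6 and 82.7 in IL-15 libraries (1.96 ± 0.25, adjusted p = 0.00346), and passed on 4 of 5 scales. Tcf7, the factor TCF-1, was called at 2.60 ± 0.58 (adjusted p = 0.0132), passed on 2 of 5 scales and lost the call without anti-TIM-3 replicate 2.

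Interferon-stimulated genes were called higher at 18 of 24 tested and lower at 3, beside 44% and 6.98% of all tested probes. Only 1 and 2 of them passed on all scales. The median log2 difference was 1.22, the higher calls numbered 8 without anti-TIM-3 replicate 2, and the lower calls numbered 1 without IL-15 replicate 1 or without IL-15 replicate 3. Gbp5, a guanylate-binding protein of inflammasome activation, was the rise: it had 306 and 576 normalised counts in anti-TIM-3 libraries, 77.2 and 75.4 in untreated feeder libraries, and 83.4 and 115 in IL-15 libraries (log2 difference 2.10 ± 0.35, adjusted p = 0.00625). Irgm2, an interferon-inducible GTPase, and the RNA helicase gene Ddx60 are not on this list and also rose on all scales. Canonical members of the list such as Isg15 (1.55, adjusted p = 0.0128) and Irf7 (1.67, adjusted p = 0.014) were called on the deposited scale and on no other. The membrane proteins that restrict virus entry went down. Ifitm1 had 286 and 22.6 in anti-TIM-3 libraries, 3985 and 4790 in untreated feeder libraries, and 3807 and 2230 in IL-15 libraries (−5.18 ± 1.08, adjusted p = 0.0114), and its call was lost on positive control scaling (adjusted p = 0.0593). Ifitm2 had 936 and 149 in anti-TIM-3 libraries, 7687 and 8339 in untreated feeder libraries, and 7648 and 6460 in IL-15 libraries (−4.23 ± 0.78, adjusted p = 0.00747), and it passed on all scales. The anti-TIM-3 replicates differed several-fold and still lay below all other libraries, and both calls were lost without IL-15 replicate 1 and without IL-15 replicate 3. These genes are close paralogs, and cross-binding of their probes was not tested.

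MHC class I and antigen processing genes were called higher at 11 of 16 tested and lower at 0 on the deposited scale, at a median log2 difference of 1.10, with 6 higher calls left without anti-TIM-3 replicate 2. Over all tested probes 44% were called higher on the deposited scale, at a median of 0.70. With TMM and with the median of ratios 6 of the 16 genes were higher and 3 lower, and with positive control scaling 1 was higher. H2-T23, the nonclassical molecule Qa-1 that CD94/NKG2 receptors bind, passed on all scales. It had 1480 and 2460 normalised counts in anti-TIM-3 libraries, 784 and 1054 in untreated feeder libraries, and 366 and 552 in IL-15 libraries (log2 difference 2.09 ± 0.33, adjusted p = 0.0059). The classical genes H2-K1 (1.96 ± 0.28) and H2-D1 (1.77 ± 0.27) and the transactivator gene Nlrc5 (2.36 ± 0.48) were called and passed on 4 of 5 scales. Proteasome subunit genes without a role specific to immunity, Psmb7 and Psmd7, did not pass, at −0.26 and −0.09.

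Genes of IL-15 and common gamma chain signalling were called higher at 9 of 16 tested, beside 44% of all tested probes, and lower at 0. On all scales 1 passed, beside 8.6% of all tested probes, and the median log2 difference was 1.05. Without anti-TIM-3 replicate 2 there were 4 higher calls, and without IL-15 replicate 1 there were 5. Il2rb, the chain through which IL-15 signals, did not pass at 16348 and 18360 normalised counts in anti-TIM-3 libraries, 14339 and 16235 in untreated feeder libraries, and 14048 and 13666 in IL-15 libraries (log2 difference 0.32 ± 0.21, adjusted p = 0.236). Il21r, the IL-21 receptor, had 308 and 300 in anti-TIM-3 libraries, 66.3 and 55.6 in untreated feeder libraries, and 65.1 and 71.0 in IL-15 libraries (2.16 ± 0.23, adjusted p = 0.00214). Socs1, a feedback inhibitor of cytokine receptors, had 802 and 724 in anti-TIM-3 libraries, 209 and 185 in untreated feeder libraries, and 272 and 198 in IL-15 libraries (1.72 ± 0.23, adjusted p = 0.0039), and passed on 4 of 5 scales. In both, the untreated feeder and IL-15 libraries overlapped, and the anti-TIM-3 libraries stood above.

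Receptor signalling kinases and adaptors were called higher at 10 of 18 tested, with 0 on all scales and a median log2 difference of 0.68 beside 44% called and a median of 0.70 over all tested probes. With TMM there were 1 higher and 3 lower. These calls numbered 6 without anti-TIM-3 replicate 1, 4 without anti-TIM-3 replicate 2 and 3 without IL-15 replicate 1. Zap70, the kinase at the immune receptor chains, was called at 1.37 ± 0.21 (adjusted p = 0.00532), on 4 of 5 scales, and Fyn at 1.18 ± 0.18 (adjusted p = 0.00486). Of the 6 tested TIM-3 ligands and partners, Fyn and Lck were called higher, on 3 and 1 of the scales, and Havcr2 lower. Without anti-TIM-3 replicate 2 or without IL-15 replicate 1 there was 1 higher call, and without anti-TIM-3 replicate 1 or without IL-15 replicate 3 there were 2 lower calls. The ligand genes Hmgb1 (0.15) and Ceacam1 (0.84) did not pass on the deposited scale. On the other scales, 2 genes of this list were lower with TMM, with positive controls and with the median of ratios, and 1 with total counts. Toll-like receptors and innate sensors were called higher at 9 of 21 tested, again beside 44% of all tested probes, with 0 on all scales and a median of 0.72. With TMM there were 4 higher and 2 lower. The higher calls numbered 5 without anti-TIM-3 replicate 2. The RNA sensors Ddx58 (1.56 ± 0.18) and Ifih1 (1.53 ± 0.24) passed on 4 of 5 scales. Of 7 tested genes of the TGF-β pathway, 3 were called higher, beside 44% of all tested probes. Their median log2 difference was 0.75, beside 0.70 for all tested probes. Fewer were called higher without anti-TIM-3 replicate 2, and with TMM 1 was higher and 2 were lower. Tgfbr1, the type I receptor, passed on all scales, at 699 and 984 normalised counts in anti-TIM-3 libraries, 229 and 229 in untreated feeder libraries, and 138 and 176 in IL-15 libraries (2.42 ± 0.25, adjusted p = 0.00214).

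Among 15 tested genes of hypoxia, glycolysis and metabolism, 5 were called lower and 3 higher, beside 6.98% and 44% of all tested probes. On all scales 5 were lower and 0 higher, beside 6.74% and 8.6% of all tested probes. The median log2 difference was 0.29, against 0.70 for all tested probes, and it was −0.41 on TMM scaling. Hif1a, the oxygen-regulated subunit of hypoxia-inducible factor, had 929 and 863 normalised counts in anti-TIM-3 libraries, 1554 and 1903 in untreated feeder libraries, and 3389 and 2878 in IL-15 libraries, in 3 groups without overlap (−1.80 ± 0.19, adjusted p = 0.00214). Vegfa and Mif, described above, were 2 more of the 5. Tfrc, the transferrin receptor, had 1827 and 700 in anti-TIM-3 libraries, 3458 and 3531 in untreated feeder libraries, and 3947 and 2976 in IL-15 libraries (−1.60 ± 0.44, adjusted p = 0.0257). Gpi1, glucose phosphate isomerase of glycolysis, had 2159 and 2132 in anti-TIM-3 libraries, 4451 and 6603 in untreated feeder libraries, and 3690 and 4028 in IL-15 libraries (−0.85 ± 0.24, adjusted p = 0.0279). The calls of Tfrc and Gpi1 were lost without anti-TIM-3 replicate 2 and without IL-15 replicate 1, among other libraries, and 3 of the 5 falls were left without one or the other of these. Higher were Abcb1a, a drug efflux pump, Abcg1, a sterol transporter, and Nt5e, the ectonucleotidase CD73. Of these, 1 was left without anti-TIM-3 replicate 2.

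Of 4 tested complement genes, 3 were lower on all scales and 0 higher, beside 6.74% and 8.6% of all tested probes. The median log2 difference was −1.23. Without any 1 of the 4 libraries of both groups, 2 of these 3 calls were left. Cd55, the decay-accelerating factor that protects cells from complement, had 131 and 60.8 normalised counts in anti-TIM-3 libraries, 1974 and 4391 in untreated feeder libraries, and 4520 and 1079 in IL-15 libraries (−4.63 ± 0.76, adjusted p = 0.00625). C1qbp, a mitochondrial protein that binds C1q, had 1009 and 901 in anti-TIM-3 libraries, 1746 and 1855 in untreated feeder libraries, and 2160 and 1813 in IL-15 libraries (−1.05 ± 0.18, adjusted p = 0.00625). Both were lower in each anti-TIM-3 library than in any other library. Cfp, properdin, was near the negative controls in anti-TIM-3 libraries, at 7.88 and 8.68 normalised counts.

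Apoptosis genes gave 5 higher and 3 lower among 14 tested, beside 44% and 6.98% of all tested probes. On all scales there were 0 and 3, at a median of 0.63. Bid, which links death receptors to mitochondria, had 198 and 168 normalised counts in anti-TIM-3 libraries, 280 and 356 in untreated feeder libraries, and 373 and 324 in IL-15 libraries (−0.93 ± 0.22, adjusted p = 0.0164). Both anti-TIM-3 libraries lay below all others, and the Bid call was lost without anti-TIM-3 replicate 2 or without IL-15 replicate 1. Gpi1, which the list also holds, was another of the falls. Without anti-TIM-3 replicate 2, the higher calls numbered 3 and the lower ones 0. Without IL-15 replicate 1 they were 3 and 1, and without untreated feeder replicate 2 or replicate 3 there were 3 higher calls.

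Costimulation and activation markers gave 6 higher and 3 lower among 14 tested, beside 44% and 6.98% of all tested probes. On all scales 3 and 3 passed (median log2 difference 0.61). Without anti-TIM-3 replicate 2 the calls were 4 higher and 1 lower. Without IL-15 replicate 1 there was 1 lower call. Icosl, the ligand of ICOS, had 367 and 474 normalised counts in anti-TIM-3 libraries, 71.3 and 68.0 in untreated feeder libraries, and 68.4 and 66.6 in IL-15 libraries (2.63 ± 0.23, adjusted p = 0.00214). Its receptor moved the other way: Icos had 255 and 186 in anti-TIM-3 libraries, 444 and 727 in untreated feeder libraries, and 656 and 570 in IL-15 libraries (−1.49 ± 0.30, adjusted p = 0.0102). Cd69, an early activation antigen, had 3822 and 2894 in anti-TIM-3 libraries, 1265 and 1414 in untreated feeder libraries, and 929 and 817 in IL-15 libraries (1.93 ± 0.21, adjusted p = 0.00214). Cd38, an NAD-consuming ectoenzyme, rose at 2.07 ± 0.32. The other falls were Tfrc and Ctla4.

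Adhesion and trafficking genes were called higher at 11 of 22 tested, beside 44% of all tested probes, and lower at 1. On all scales there were 4 and 1, and the median was 0.71, beside 0.70 for all tested probes. With TMM 4 were higher and 4 lower. Without anti-TIM-3 replicate 2 the higher calls numbered 3, without IL-15 replicate 1 they numbered 7, and without IL-15 replicate 3 there were 2 lower. Icam1, the ligand of the integrin LFA-1, had 496 and 1054 normalised counts in anti-TIM-3 libraries, 159 and 122 in untreated feeder libraries, and 85.1 and 129 in IL-15 libraries (2.79 ± 0.41, adjusted p = 0.00476). Cxcr6, a receptor of tissue-resident lymphocytes, had 1135 and 1010 in anti-TIM-3 libraries, 226 and 222 in untreated feeder libraries, and 225 and 118 in IL-15 libraries (2.72 ± 0.32, adjusted p = 0.00259). The other rises on all scales were Itgam and Itgax.

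**Figure D4:**
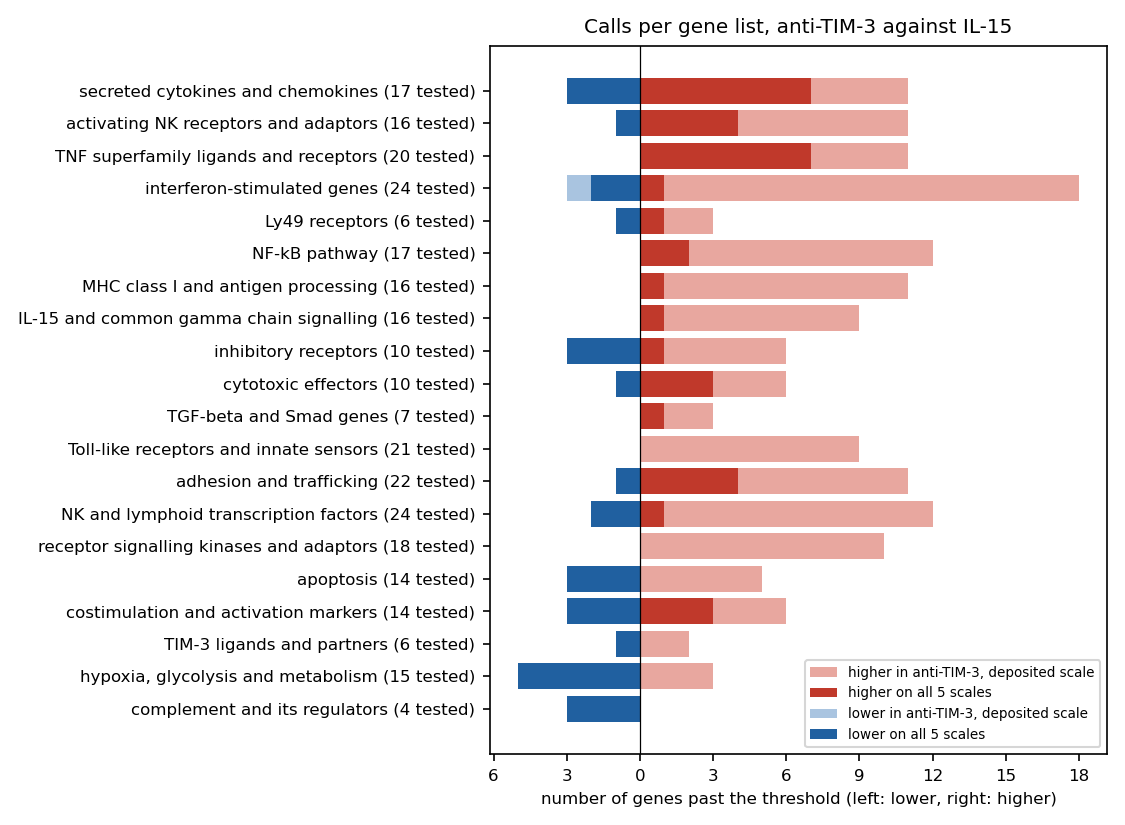
Number of genes past the threshold (x axis, lower to the left and higher to the right of 0) in each of 20 gene lists (y axis, with the number tested), in pale colour on the deposited scale and in full colour on all 5 scales. Secreted cytokines have 7 rises and TNF superfamily genes 7 rises on all scales, and these lists share members. Interferon-stimulated genes have 18 rises of which 1 passes on all scales, and the hypoxia list has 5 falls on all scales.

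The untreated feeder libraries show how the difference builds up. The first step is untreated feeder minus IL-15 and the second is anti-TIM-3 minus untreated feeder, and the steps share the untreated feeder libraries. At the first step 0 of 430 probes passed in limma, with 39 (9.07%) at an unadjusted p under 0.05. Of the 189 genes higher in anti-TIM-3 than in IL-15, 77 were graded, with 0.25 to 0.75 of the log2 difference at the first step. A further 76 had less than 0.25 of it there, 3 had more than 0.75, 32 had untreated feeder means below the IL-15 means and 1 (H2-Ab1) had them above the anti-TIM-3 means. The median share at the first step was 0.22, and it was also 0.22 over all 430 tested probes. Of the 30 genes called lower, 5 were graded, 9 had less than 0.25 of the difference at the first step, and 16 had untreated feeder means above the IL-15 means. This division also depended on the scale. Of the rises called with total count scaling, 15 were graded and 39 had less than 0.25 at the first step, and with TMM these numbers were 30 and 32. Of the falls called with TMM, 21 of 76 were graded, and their median share at the first step was 0.15, against −0.025 for the falls on the deposited scale.

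The libraries of the 3 groups followed each other without overlap in 88 of the 189 rises and 4 of the 30 falls, beside 98 (22.8%) and 4 (0.93%) of all 430 probes. Such an order needs the anti-TIM-3 and IL-15 libraries to lie apart, which a call favours. A larger ordered share among calls is therefore not a separate result. The count of ordered calls depended on the scale and was 26 rises and 31 falls on TMM scaling. On the deposited scale it was 55 rises without anti-TIM-3 replicate 2, and 13 falls without untreated feeder replicate 3 or without IL-15 replicate 3. Among the calls made on all 5 scales, the order held on each scale for the rises of Ccl4, Cd63, H2-T23, Itgax and Ddx60 and for 4 falls, among them Hif1a, Eomes and Polr1b. For Cd63 a log2 of 2.17 of the whole 3.46 lay at the first step, a larger part than in the other 4 of these rises. For Ccl4 it was 1.71 of 4.10, for H2-T23 1.02 of 2.09, for Itgax 1.00 of 2.71, and for Ddx60, an RNA helicase, 1.35 of 3.28. Among the falls, the first step was −0.86 of −1.80 for Hif1a, −0.33 of −1.05 for Eomes and −0.64 of −1.01 for Polr1b. The Polr1b call was lost when any one library was left out except IL-15 replicate 3. None of these first steps passed the test alone, at adjusted p values of 0.237 for Cd63, 0.441 for Ccl4 and for Hif1a, 0.572 for Polr1b and 0.638 for Eomes. The genes with more than 0.75 of a rise at the first step were Cd99, Cmpk2 and Ifi27, and each passed on the deposited scale and on no other.

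Other genes had most of the difference at the second step. Icosl differed by a log2 of 0.04 ± 0.23 between untreated feeder and IL-15 and by 2.58 ± 0.23 between anti-TIM-3 and untreated feeder. For Il21r the steps were −0.16 ± 0.23 and 2.32 ± 0.23, for Mif 0.15 ± 0.24 and −2.64 ± 0.24, for Vegfa 0.74 ± 0.35 and −4.01 ± 0.35, and for Socs1 −0.24 ± 0.23 and 1.95 ± 0.23. The steps of Il21r, Mif, Vegfa and Socs1 thus had opposite signs. The difference between the steps themselves was tested for every probe. In limma 0 of 430 probes passed, 85 (19.8%) had an unadjusted p under 0.05, and with voom weights 0 passed. The smallest adjusted p was 0.079, shared by Icosl, Il21r, Mif and Vegfa, and Socs1 had 0.0984. The count was 3 on positive control scaling and without IL-15 replicate 3, 9 without anti-TIM-3 replicate 1 and 23 without IL-15 replicate 1.

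**Figure D5:**
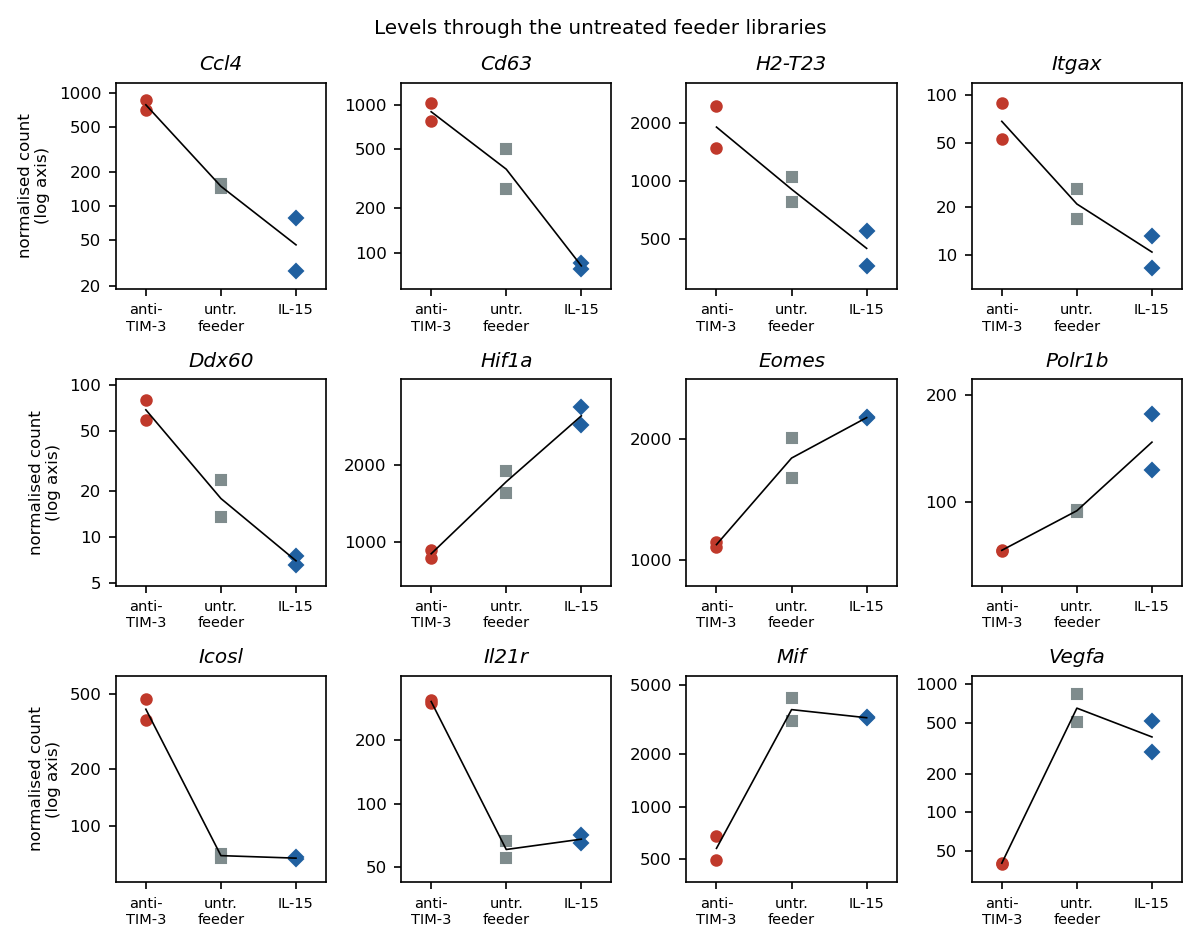
Normalised counts (y axis, log) of 12 genes in anti-TIM-3, untreated feeder and IL-15 libraries (x axis, left to right), one symbol per library and a line through the means of the log2 values. From Ccl4 to Polr1b the untreated feeder libraries lie between the other groups, while for Icosl, Il21r, Mif and Vegfa they lie at or beyond the level of the IL-15 libraries.

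Markers of NK cells were high in every library, with a summed level of 110620 to 122150 normalised counts in anti-TIM-3 libraries, 87456 to 106010 in untreated feeder libraries, and 70086 to 73673 in IL-15 libraries. The order of these sums rests on the housekeeping scale: the recovered counts behind them were 70349 to 98211 in anti-TIM-3 libraries, 85786 to 88332 in untreated feeder libraries, and 83987 to 100720 in IL-15 libraries, and so overlapped. Of these 12 genes 7 were called higher and 2 lower, beside 44% and 6.98% of all tested probes. On all scales 1 and 2 passed, beside 8.6% and 6.74% of all tested probes. The 12 tested myeloid and dendritic cell markers gave 8 higher and 0 lower calls, beside 44% and 6.98% of all tested probes. On all scales 2 were higher, beside 8.6% of all tested probes, and fewer than 8 were called higher without anti-TIM-3 replicate 2. With TMM 5 were higher and 1 lower. Their sum was 1771 to 2011 in anti-TIM-3 libraries, 761 to 775 in untreated feeder libraries, and 476 to 639 in IL-15 libraries. The rises included Cd74, the invariant chain of MHC class II, at 435 and 460 in anti-TIM-3 libraries, 118 and 22.2 in untreated feeder libraries, and 12.5 and 45.4 in IL-15 libraries (4.23 ± 0.90, adjusted p = 0.0116). Its call was lost without anti-TIM-3 replicate 2, without IL-15 replicate 1 and on positive control scaling (adjusted p = 0.0593). The integrin genes Itgam (2.82 ± 0.59) and Itgax (2.71 ± 0.47) passed on all scales. The list's further members Csf1r, Fcgr1, Mpo, Flt3 and Xcr1 were under 20 counts in every library, and Cd14 did not pass (14.6 and 19.1 in anti-TIM-3 libraries, 23.8 and 55.6 in untreated feeder libraries, and 27.5 and 13.2 in IL-15 libraries). Whether myeloid or dendritic cells were present, and whether they had a part in these or other rises, was not tested.

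The mast cell and basophil list gave 1 higher and 2 lower calls among 3 tested, all on all scales, beside 8.6% and 6.74% of all tested probes. Cma1, mast cell chymase, had 6.76 and 1.74 normalised counts in anti-TIM-3 libraries, 48.5 and 331 in untreated feeder libraries, and 362 and 179 in IL-15 libraries. Ctsg, cathepsin G, had 18.0 and 6.95 in anti-TIM-3 libraries, 352 and 868 in untreated feeder libraries, and 744 and 222 in IL-15 libraries. The anti-TIM-3 values of Cma1 rest on 6 and 1 counts and those of Ctsg on 16 and 4, at or near the negative controls, so the fitted differences of −6.22 and −5.18 depend on few counts. Kit, the stem cell factor receptor that immature NK cells also carry, rose (383 and 429 in anti-TIM-3 libraries, 176 and 129 in untreated feeder libraries, and 71.8 and 87.0 in IL-15 libraries, 2.36 ± 0.25, adjusted p = 0.00214). The other mast cell markers of the panel, Fcer1a, Ms4a2, Tpsab1 and Il1rl1, were under 20 counts in every library.

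Of 8 tested markers of other innate lymphoid cells, 4 were higher and 2 lower, beside 44% and 6.98% of all tested probes. On all scales 3 and 2 passed, beside 8.6% and 6.74%: Rora, Kit and Cxcr6 rose, and Icos and Klrg1 fell. T cell markers gave 0 calls among 3 tested, with a sum of 134 to 159 in anti-TIM-3 libraries, 304 to 324 in untreated feeder libraries, and 99.3 to 131 in IL-15 libraries. Cd3d, a chain of the T cell receptor complex, had 67.6 and 41.7 in anti-TIM-3 libraries, 190 and 188 in untreated feeder libraries, and 22.5 and 64.4 in IL-15 libraries. The 1 tested B cell marker, Tnfrsf13c, did not pass. Of the 3 tested genes of the feeder line, Icam1 (CD54) and Gata3 were called higher and Cd200 did not pass. The Gata3 call was made on the deposited scale and on no other, and it was lost without anti-TIM-3 replicate 2. Cd86, which the feeder cells carry, was not detected well enough to be tested, and the other symbols of that list were not analysed here.

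Some genes differed more between the anti-TIM-3 replicates than between the groups. They were chosen after their values were seen. Birc5, survivin of dividing cells, had 306 and 12.2 normalised counts in anti-TIM-3 libraries, 357 and 278 in untreated feeder libraries, and 240 and 365 in IL-15 libraries. Cdkn1a, the cell cycle inhibitor p21, had 1111 and 151 in anti-TIM-3 libraries, 468 and 845 in untreated feeder libraries, and 789 and 426 in IL-15 libraries. Replicate 2 was below every other library in both genes, and neither gene passed (adjusted p = 0.194 for Birc5 and 0.66 for Cdkn1a). Further calls on all scales were the rises of Klrb1 (2.60 ± 0.38), a paralog of Klrb1c, and Irgm2 (2.93 ± 0.57), an interferon-inducible GTPase, and the falls of Epcam (−1.62 ± 0.51), Fut7 (−1.78 ± 0.45), Dock9 (−1.39 ± 0.43) and Mef2c (−1.10 ± 0.33). The calls of these 4 falls were lost without anti-TIM-3 replicate 1, among other libraries. A further 88 endogenous genes were not tested, 73 of them under 20 counts in all 6 libraries.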

How the data were processed

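RNA of 6 libraries was measured with a NanoString nCounter panel. The values that could be assigned to samples were deposited on a log2 scale for 532 probes, among them 20 housekeeping genes. No header or label states their scaling: the mean log2 of the housekeeping genes was 9.22 in every library, and the steps between values gave back whole counts for 100% of values within 0.01. The submitters' processing notes name limma with no role or version. The labels describe quantitative PCR, whereas the files hold NanoString probes. A further 18 columns and 12 rows named by instrument lane were not used.

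Groups were taken from the labels. A probe was tested if 2 or more libraries had 20 or more recovered counts, which held for 430. The test was limma 3.58.1 (R 4.3.3) on the log2 values as deposited, without a pseudocount. The model held the 3 groups over all 6 libraries, using eBayes with trend and robust settings, and the threshold was a Benjamini-Hochberg adjusted p of 0.05. Values with ± are log2 differences and the standard error of the fit. Recovered counts were rescaled by TMM, positive controls, total count and median of ratios as alternatives, and further ones changed the filter, background, variance model, block and libraries. With 2 libraries per group, counting error is the smaller part of the spread, and depth limits the genes near the negative controls.

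Replicate numbers in the titles were checked as pairs: deviations from the group means correlated across probes at 0.08, 0.04 and −0.42 for the shared numbers, so the libraries were not treated as pairs. With 2 libraries per group this check cannot exclude that libraries with the same number share a source. Named genes were the 12 largest rises and 12 largest falls past the threshold without overlap and with a mean of at least 50 counts in the higher group, Havcr2, up to 4 called members of each list, ordered genes and those with the smallest p for a difference between the steps. Other genes named were chosen after their values were seen, to account for calls on all scales or for known members that did not pass. The comparison, the 27 gene lists (318 of 522 symbols were in the table) and the tests were chosen with earlier results of these data known, so their direction is not independent support. Some genes that the rule selects are counted but not reported here by name. Promoters came from RefSeq (GRCm38.p6).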

Additional observations from a re-analysis of the deposited data

How the results depend on the processing

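The scale was the choice that moved the comparison most. The genes higher and lower in anti-TIM-3 than in IL-15 libraries numbered 189 and 30 on the deposited scale, 77 and 76 with TMM scaling, 74 and 55 with total count scaling, 75 and 77 with median of ratios scaling, and 38 higher with positive control scaling. The median log2 difference of all tested probes, 0.70 on the deposited scale, was 0.16 with total count scaling, 0.017 with positive control scaling, 0.014 with median of ratios scaling and −0.0037 with TMM. Genes ordered without overlap through the untreated feeder libraries numbered 88 higher and 4 lower, against 26 and 31 under TMM, 7 and 18 under positive control scaling, 15 and 25 under total count scaling and 25 and 32 under the median of ratios. Which scale is nearer to the amount of RNA per cell was not tested. With the replicate block, calls were 64 higher and 12 lower and ordered genes 36 and 2. Whether the shared numbers mark pairs is not known. Leaving out 1 library gave 95 to 172 higher calls, 18 to 29 lower calls, medians of 0.61 to 0.79, 55 to 125 ordered rises and 3 to 13 ordered falls. A group left with 1 library was assumed to vary like the others. Genes whose steps differ, 0 in limma, numbered 3 with positive control scaling and 0 to 23 when 1 library was left out. The other count filters, negative control subtraction, other variance models and a fit to only the 4 libraries kept both counts of calls within 1.5 times. Of the 85 named genes, 62 kept their side of the threshold without anti-TIM-3 replicate 2, 50 with positive control scaling and 72 with TMM, and no named gene reversed a call. Genes near the negative controls, such as Cma1, Ctsg and Klra2 in anti-TIM-3 libraries, are limited by depth.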
